A study of Drosophila melanogaster with 24 samples.

Results

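Heads of wild-type flies (Drosophila melanogaster, strain w1118) collected in the dark phase were compared with heads collected in the light phase of the same daily cycle. The 12 wild-type libraries of the 24 in the series were used: 6 from the dark phase, at zeitgeber time (ZT, hours after lights on) 14, 18 and 22, and 6 from the light phase, at ZT2, ZT6 and ZT10, with 2 replicates at each time. Libraries were taken by genotype and time from their titles, and no measured value was used to choose them. Before collection the flies spent 3 days at 25 °C in cycles of 12 h light and 12 h dark. The labels' treatment text names ZT2 and ZT14 and the titles name 6 times, and the titles were followed. The other 12 libraries come from heads labelled cwo5073 mutant, after the clock repressor gene clockwork orange, kept in the same cycle. They enter only joint fits with the wild type, given at the end, and such a fit is also among the alternative analyses of wild type. The labels name neither sex nor age. Nothing states that replicates come from separate cultures, so the p-values below rest on the spread between libraries, which may be technical.

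In flies the circadian clock is a feedback loop in which the activators Clock (Clk) and cycle (cyc) drive their own repressors period (per) and timeless (tim), as well as vrille (vri) and clockwork orange (cwo), which feed back on Clk and on the other targets. Light acts on this loop through the photoreceptor protein cryptochrome (cry) and through the eyes, and many head transcripts follow the clock, the light or the behaviour that goes with each. A comparison of dark with light phase therefore holds clock-driven and light-driven differences together, and it says little of a transcript whose peak sits near the change from light to dark.

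Wild-type libraries held 11322400 to 16606671 counts. Abundant neuron, photoreceptor and glia markers were found in every library: the summed photoreceptor markers stood at 51829 to 66151 CPM (each gene's counts scaled to a common library size) in the dark phase and 43139 to 68419 CPM in the light phase, and the summed neuron markers at 4117 to 6342 CPM in the dark and 5064 to 7049 CPM in the light. The 4 glia markers summed to 452 to 582 CPM in the dark and 160 to 566 CPM in the light. Markers of accessory gland summed to at most 0.461 CPM in the dark and 0.771 CPM in the light, with Acp26Aa, Acp53Ea and SP at 0 in all 12 libraries, and those of ovary and eggshell to at most 0.241 and 0.428 CPM, with Cp38 and nos at 0. Midgut markers summed to 17.9 to 69.7 CPM in the dark and 8.40 to 24 CPM in the light, with Jon65Aiv at 0, and their part in the results was not tested. A pair of libraries, ZT22 replicate 1 in the dark and ZT2 replicate 2 in the light, had low coverage of long genes: their long-gene score (median log2 deviation of abundant genes with transcripts of at least 4550.5 nt minus that of abundant genes of at most 1650 nt) was -0.816 and -0.751, against -0.267 to 0.483 in the other 10. Results are therefore also given for 5 against 5 libraries without this pair.

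Few genes passed the comparison of the phases. Of 10298 genes tested, 11 (0.107%) differed between dark and light phase at an adjusted p under 0.05 (edgeR quasi-likelihood test, Benjamini-Hochberg adjustment): 4 (0.0388%) were higher and 7 (0.0680%) lower in the dark. The median log2 difference over all genes was -0.01, and 690 genes (6.70%) had an unadjusted p under 0.05, 321 of them higher (3.12%) and 369 lower (3.58%) in the dark. In this test the spread among the 3 times of a phase counts as error, so a wide course within a phase weakens a call but does not bar it. The number of calls rested on single libraries: it was 18 without ZT10 replicate 1 and also without ZT2 replicate 2, 6 without ZT2 replicate 1, 7 without ZT6 replicate 2, 5 without ZT6 replicate 1, ZT22 replicate 1 or ZT18 replicate 2, 4 without ZT22 replicate 2, and 3 without ZT18 replicate 1. With 5 against 5 libraries 17 genes (0.165%) were called, 11 higher (0.107%) and 6 lower (0.0583%) in the dark, and 7 of these were among the 11. DESeq2, run on the same 12 libraries, called 101 genes (0.981%), 47 higher (0.456%) and 54 lower (0.524%), among them all 11.

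**Figure D1:**
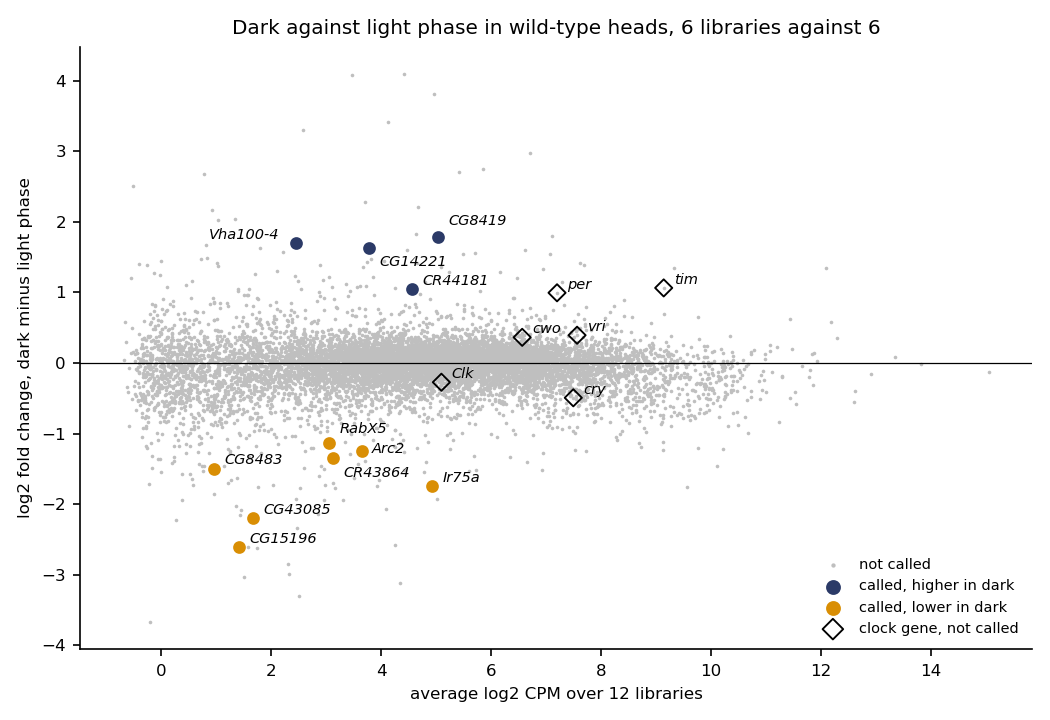
Log2 difference, dark minus light phase (vertical axis), against the average log2 CPM over the 12 wild-type libraries (horizontal axis), 1 point per gene tested. The 4 called genes above the line and the 7 below it are named and lie at low to middle levels; the clock genes per and tim, drawn as diamonds, have log2 differences of 0.99 and 1.06 and were not called.

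CG8419 showed the widest rise among the called genes that were higher in the dark. Its level was lowest 40.2, median 47.8 and highest 73.8 CPM in the dark phase, against 8.07, 16.4 and 19.4 CPM in the light phase, a log2 difference of 1.78 ± 0.22 (SE; adjusted p = 0.00554), or 3.43-fold. Every dark library lay above every light library, and the lowest time was ZT10, the last of the light phase, with 8.07 and 11.4 CPM. The gene lies on chromosome 2L at 8206171 to 8209637 (dm6, plus strand), with a single transcript of 3240 nt. It overlaps Su(var)205, which encodes the heterochromatin protein HP1a, on the other strand at the ends of both genes, and Su(var)205 itself differed by -0.27 ± 0.17 (adjusted p = 0.788). How the counting used strand is not stated.

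Vha100-4, a gene for subunit a of the vacuolar proton pump (V-ATPase), rose 3.25-fold in the dark. Its lowest, median and highest levels were 6.11, 7.82 and 10.6 CPM in the dark phase, against 1.87, 2.40 and 3.71 CPM in the light phase (log2 difference 1.70 ± 0.20, adjusted p = 0.00554). The highest dark values were the pair at ZT14, 10.6 and 9.78 CPM, so the level was already at its highest 2 h after lights off. It lies on chromosome 3R at 18386841 to 18389805, minus strand, and overlaps cona on the other strand, a gene too low to be tested.

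CG14221 rose 3.11-fold in the dark, with 15.2, 19.4 and 30.6 CPM as lowest, median and highest value in the dark phase and 4.90, 6.30 and 8.88 CPM in the light phase (log2 difference 1.64 ± 0.19, adjusted p = 0.00554). The 4 dark libraries of ZT14 and ZT18 held 19.1 to 30.6 CPM and those of ZT22 15.2 and 18.0 CPM, which is still above every light library. It lies on the X chromosome at 19618819 to 19621245, minus strand. CG8419, Vha100-4 and CG14221 were called in all 26 alternative analyses, including each one that left out a library and the one of 5 against 5.

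The fourth gene that was higher in the dark is the antisense RNA CR44181 (2L, 10695058 to 10698195, plus strand), which overlaps CG7300 on the other strand. It had 22.9, 33.8 and 36.2 CPM as lowest, median and highest value in the dark phase and 10.8, 15.3 and 19.2 CPM in the light phase (log2 difference 1.04 ± 0.16, adjusted p = 0.0311). Without both low long-gene libraries the difference was 0.93 (adjusted p = 0.0439). The call was lost without either replicate of ZT6, ZT18 or ZT22 or without ZT14 replicate 1, with adjusted p of 0.0529 to 0.129.

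Among the genes that were lower in the dark, Ir75a had the highest level. Ir75a encodes a receptor of the ionotropic family, which serves smell in the antenna. Its lowest, median and highest levels were 10.8, 13.2 and 17.9 CPM in the dark phase, against 23.2, 47.6 and 68.2 CPM in the light phase (log2 difference -1.74 ± 0.23, adjusted p = 0.0112), 3.35-fold lower in the dark. Light values were highest at ZT6, 56.9 and 68.2 CPM, and lowest at ZT10, 23.2 and 35.8 CPM, so the level had already fallen before lights off while staying above all dark libraries. The gene lies on 3L at 17815570 to 17817921, minus strand. Without ZT18 replicate 1 the adjusted p was 0.0512; in the 5 against 5 comparison the difference was -1.77 (adjusted p = 0.0353).

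Arc2, a capsid-like gene related to the synaptic plasticity gene Arc of mammals and a neighbour and paralog of Arc1, was 2.37-fold lower in the dark. Its lowest, median and highest levels were 6.11, 7.43 and 8.98 CPM in the dark phase, against 12.2, 15.8 and 24.5 CPM in the light phase (log2 difference -1.25 ± 0.18, adjusted p = 0.0193). The light values peaked at ZT10, with 24.5 and 21.7 CPM, and the dark values began 4 h later at 7.86 and 8.98 CPM, so here the change from the last light to the first dark time was the widest step of the day. Arc2 lies on 2R at 14361924 to 14362825, plus strand, and how the counting divides reads between the paralogs is not stated. Arc1 had a far higher average log2 CPM, 10.0 against 3.65 for Arc2. It differed between phases by -0.14 ± 0.38 (edgeR adjusted p = 0.95), and a part of its reads in the Arc2 values was not tested. In the 5 against 5 comparison the difference of Arc2 was -1.27 (adjusted p = 0.0412). The call was lost without ZT18 replicate 1 (adjusted p = 0.0890), ZT18 replicate 2 (0.0529), ZT22 replicate 1 (0.0503) or ZT22 replicate 2 (0.0591).

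RabX5, a gene of the Rab family of vesicle-traffic GTPases, had 4.13, 4.46 and 7.88 CPM as lowest, median and highest value in the dark phase and 9.45, 11.1 and 14.3 CPM in the light phase (log2 difference -1.14 ± 0.18, adjusted p = 0.0311). The antisense RNA CR43864 had 4.25, 4.87 and 5.87 CPM in the dark and 7.53, 10.9 and 20.1 CPM in the light (log2 difference -1.35 ± 0.22, adjusted p = 0.0413). The dark libraries of both lay below all light libraries. CR43864 (X, 1902028 to 1903733) overlaps CG32801 and Edem1 on the other strand, and Edem1, which encodes a protein of degradation from the endoplasmic reticulum, differed by 0.34 ± 0.26 (adjusted p = 0.821). Neither call held without both low long-gene libraries, with a log2 difference of -1.03 (adjusted p = 0.0514) for RabX5 and -1.36 (0.0610) for CR43864. Leaving out single libraries, RabX5 was called in 3 of 12 analyses and kept its call only without ZT2 replicate 2, ZT10 replicate 1 or ZT14 replicate 2, with adjusted p up to 0.129 in the others. CR43864 was called in 3 of 12 as well, without ZT2 replicate 2, ZT10 replicate 1 or ZT10 replicate 2, and reached 0.142 in the others.

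The remaining 3 genes, like Vha100-4, have an average log2 CPM under 3 and are named because they complete the 11. CG43085 had 0.579, 1.12 and 1.53 CPM in the dark and 2.78, 5.15 and 8.46 CPM in the light (log2 difference -2.20 ± 0.32, adjusted p = 0.0199). CG15196 had 0.489, 0.757 and 0.854 CPM in the dark and 1.34, 4.01 and 8.87 CPM in the light (log2 difference -2.61 ± 0.44, adjusted p = 0.0413). CG8483 had 0.675, 0.916 and 1.41 CPM in the dark and 1.61, 2.80 and 3.71 CPM in the light (log2 difference -1.50 ± 0.24, adjusted p = 0.0344). All 3 stood higher in each light library than in any dark one, and CG15196 declined across the light phase, with means of 7.79 CPM at ZT2, 4.01 CPM at ZT6 and 1.55 CPM at ZT10. CG43085 kept its call with 5 against 5 libraries (adjusted p = 0.0488), while CG8483 (log2 difference -1.32, 0.0514) and CG15196 (-2.51, 0.0737) did not. CG43085 lost its call without ZT2 replicate 1, ZT6 replicate 1 or either replicate of ZT18 or ZT22 (adjusted p up to 0.0890). CG8483 kept its call only without ZT2 replicate 2, ZT10 replicate 1 or ZT18 replicate 2 (adjusted p up to 0.129 in the others) and CG15196 only without either replicate of ZT10 (up to 0.141). In all 3 the highest adjusted p came from leaving out ZT18 replicate 1.

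**Figure D2:**
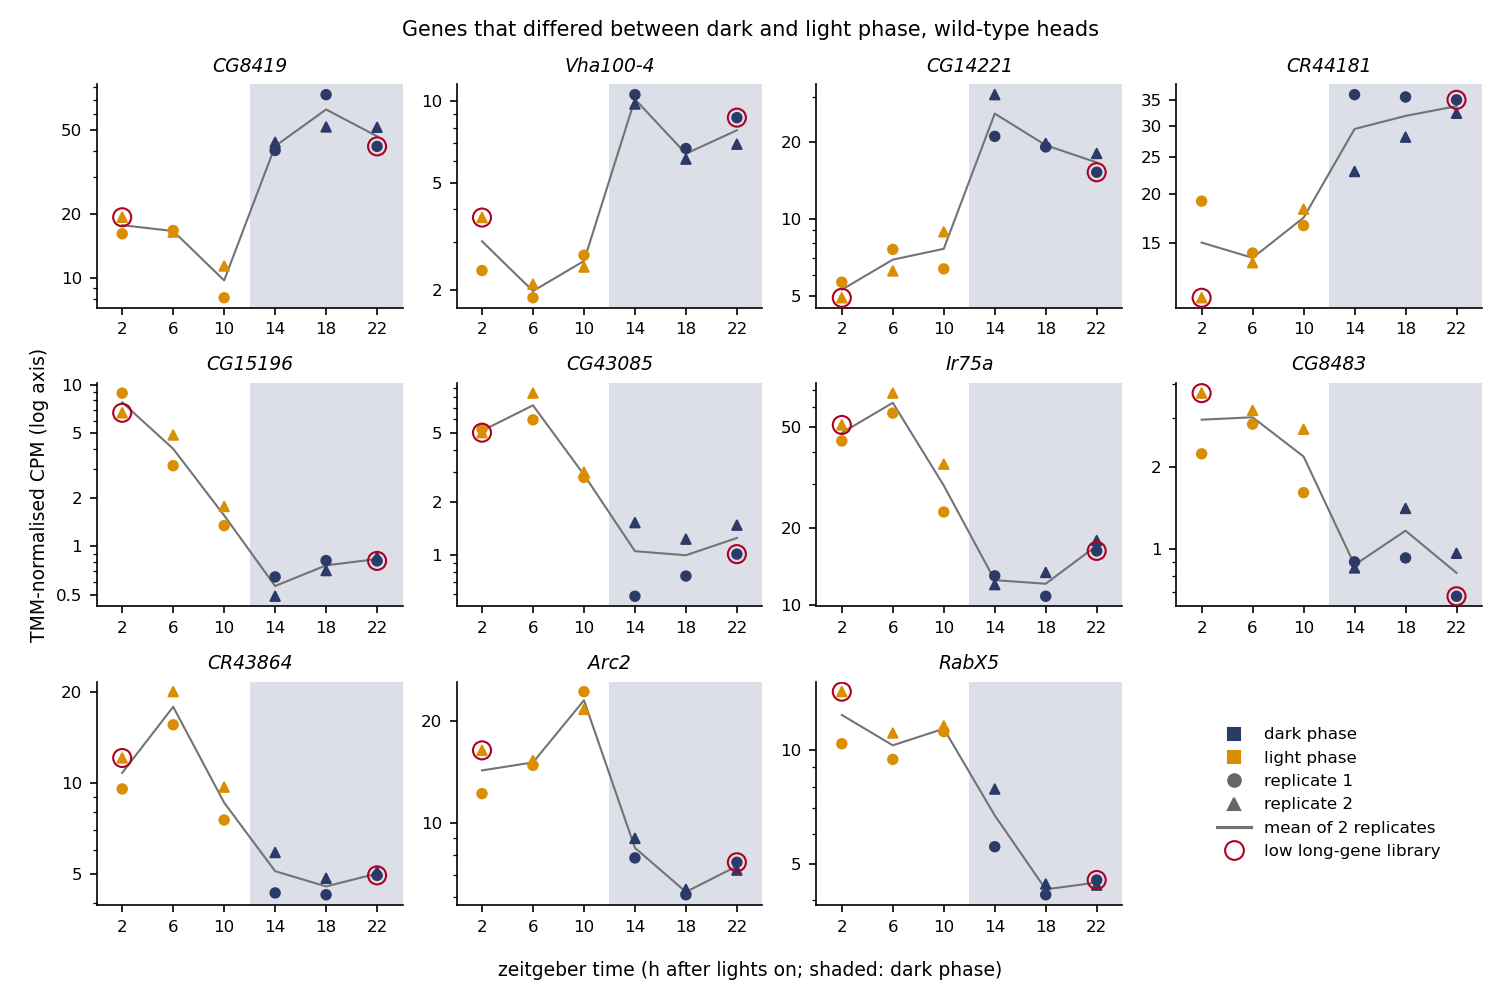
TMM-normalised CPM (log axis) of the 11 called genes in each wild-type library by zeitgeber time, circles for replicate 1 and triangles for replicate 2, with the mean of both as a line and the dark phase shaded. Dark and light libraries do not overlap in any panel; red rings mark ZT2 replicate 2 and ZT22 replicate 1, the libraries with low coverage of long genes.

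None of the 19 core clock genes was called between the phases with phase as the only term, although several of them varied widely over the day. In edgeR an unadjusted p under 0.05 was reached by 3, all lower in the dark, beside 3.58% of all genes lower and 3.12% higher. These 3 were cry, the kinase gene shaggy (sgg) and the kinase gene nemo (nmo). Their edgeR adjusted p were 0.715, 0.616 and 0.505. DESeq2 called none of the 19. Over the 6 times, tim averaged 79.8, 249, 769, 1301, 770 and 224 CPM at ZT2, ZT6, ZT10, ZT14, ZT18 and ZT22. Its ZT10 level in the light and its ZT18 level in the dark were thus alike, and the phases overlapped: lowest, median and highest values were 210, 770 and 1457 CPM in the dark and 71.1, 249 and 919 CPM in the light (log2 difference 1.06 ± 0.65, adjusted p = 0.776). Likewise per averaged 48.9, 71.6, 175, 337, 215 and 35.2 CPM over the same times, and its log2 difference was 0.99 ± 0.60 (adjusted p = 0.776). The bZIP repressor gene vri averaged 25.5, 111, 355, 438, 174 and 33.9 CPM, a 17.2-fold range over the day, with a log2 difference between phases of 0.39 ± 0.80 (adjusted p = 0.934). The 3 repressor genes had their highest mean at ZT14, as did cwo (58.9, 76.7, 113, 164, 99.4 and 56.8 CPM; log2 difference 0.36 ± 0.30, adjusted p = 0.827).

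The activator gene Clk ran opposite, with 47.5, 49.0, 15.5, 5.75, 35.9 and 51.1 CPM over the 6 times, lowest at ZT14, and differed between phases by -0.27 ± 0.56 (adjusted p = 0.934). Its partner cyc stayed between 22.8 and 45.2 CPM in all 12 libraries, with a log2 difference of 0.18 ± 0.14 (adjusted p = 0.821). The photoreceptor gene cry had 106, 140 and 197 CPM as lowest, median and highest value in the dark and 111, 217 and 261 CPM in the light (log2 difference -0.49 ± 0.21, adjusted p = 0.715). Its single low light value, 111 CPM, came from ZT2 replicate 2, and with 5 against 5 libraries the difference was -0.69 (adjusted p = 0.114). Of 26 alternatives 1 called cry, the one with time as a factor and without both low long-gene libraries (-0.66, adjusted p = 0.0377), and 3 called tim, all with time as a factor (1.27 to 1.29, adjusted p = 0.0137 to 0.0297). Pdp1, the bZIP activator that counters vri, ranged from 1020 to 1760 CPM in the dark and from 733 to 3069 CPM in the light, where its highest value was again ZT2 replicate 2 (log2 difference -0.40 ± 0.31, adjusted p = 0.821). The signs for tim, vri, cwo and Clk were not stable: without ZT2 and ZT14 the log2 differences were -0.04, -1.17, -0.28 and 0.43.

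**Figure D3:**
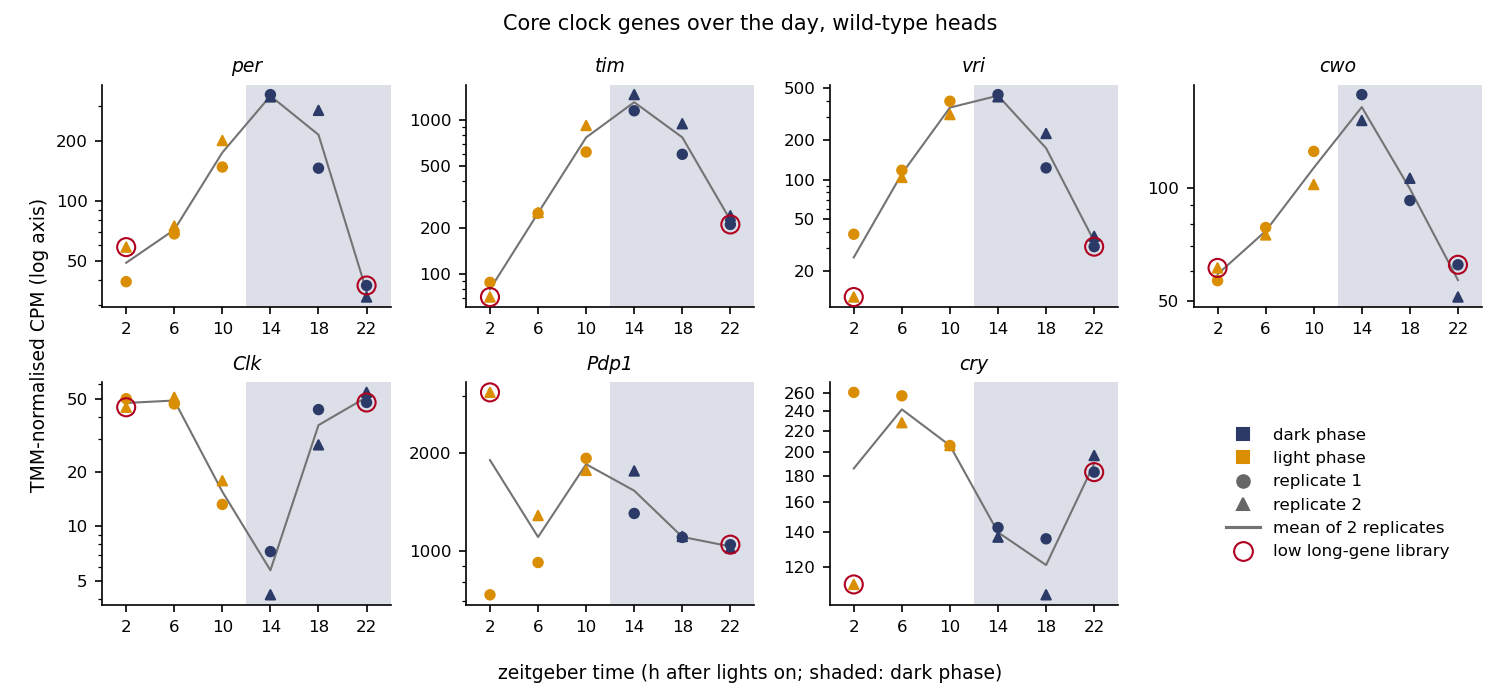
TMM-normalised CPM (log axis) of 7 core clock genes by zeitgeber time in wild-type heads, with symbols for replicates, mean lines, shading for the dark phase and red rings for the libraries with low coverage of long genes. The genes per, tim, vri and cwo peaked at ZT14, with 337, 1301, 438 and 164 CPM on average, and Clk was lowest there, at 5.75 CPM, so that each phase holds high and low values.

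To ask whether these genes varied within the day at all, any difference among the 6 times was tested in a model chosen after the data were seen. It called 57 of 10298 genes (0.554%), 5 of them in the core clock list: tim (adjusted p = 0.00738), per (0.0131), Clk (0.0141), vri (0.0184) and cwo (0.0294). Of the 11 genes called between phases, 8 were among the 57.

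A second reading of the dark-light contrast gives each time its own mean and averages 3 dark minus 3 light times, so that the regular course within a phase no longer counts as error. It called 55 genes (0.534%), 28 higher (0.272%) and 27 lower (0.262%) in the dark, including all 11. This count depended on single libraries, from 19 without ZT6 replicate 2 to 2181 without ZT2 replicate 1, which leaves ZT2 to the library with low coverage of long genes alone and assumes that a lone library varies like the others. It was 100 without ZT2 replicate 2, 22 without ZT14 replicate 2, 24 without ZT6 replicate 1, 26 without ZT22 replicate 2, 29 without ZT10 replicate 2, 30 without ZT22 replicate 1, 31 without ZT10 replicate 1, 33 without ZT18 replicate 2 and 34 without ZT14 replicate 1. Without both low long-gene libraries 113 genes were called, among them 49 of the 55. In 16 of the 28 genes that were higher in the dark the mean was highest at ZT18 and in 9 at ZT14, against 2 at ZT22 and 1 at ZT2. In 14 of the 27 that were lower the mean was highest at ZT6, in 11 at ZT2 and in 2 at ZT10. The genes named from this list were chosen after their values were seen. How each of their calls in this model holds without single libraries is not given.

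In this model 1 of 19 core clock genes (tim), 1 of 11 clock accessory genes (gl) and 3 of 20 head-output genes (CG17386, Cyp4d21 and CG11891) rose in the dark, against 28 of 10298 genes. No member of these lists fell. Lists and members were chosen with earlier results of these data known, so no conclusion is drawn from these shares. CG17386, current symbol Achl (Achilles), a rhythmic gene of neurons that holds back immune genes, had 76.5, 152 and 356 CPM as lowest, median and highest value in the dark and 3.71, 27.9 and 45.4 CPM in the light. Its phases did not overlap, and the difference was 3.40 ± 0.29 with time as a factor (adjusted p = 0.00162) and 2.97 ± 0.63 in the phase comparison (adjusted p = 0.0957). Ephexin (Exn), a gene that acts at synapses and is in none of the lists, had 135, 310 and 433 CPM in the dark and 61.3, 112 and 143 CPM in the light (1.31 ± 0.18, adjusted p = 0.0137; phase comparison 1.42 ± 0.29, adjusted p = 0.0957). Its ZT22 libraries, at 135 and 157 CPM, reached down to the upper light values. The eye transcription factor gene glass (gl) had 60.9, 105 and 129 CPM in the dark and 28.6, 67.9 and 86.2 CPM in the light (0.75 ± 0.13, adjusted p = 0.0499), and the P450 gene Cyp4d21 had 93.6, 107 and 132 CPM in the dark and 42.8, 55.6 and 95.8 CPM in the light (0.96 ± 0.16, adjusted p = 0.0366). In tim the difference was 1.29 ± 0.17 (adjusted p = 0.0137).

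Myo28B1, dy and rgr also rose. The myosin gene Myo28B1 had 14.0, 45.9 and 60.6 CPM in the dark and 2.75, 8.77 and 16.4 CPM in the light (2.18 ± 0.35, adjusted p = 0.0318), with the 4 libraries of ZT14 and ZT18 at 42.5 to 60.6 CPM. Myo28B1 overlaps Slob on the other strand, which differed by 0.70 ± 0.24 (adjusted p = 0.548). The gene dusky (dy), for a membrane protein of cuticle-forming cells, had 2.16, 6.67 and 34.8 CPM in the dark and 0.538, 1.18 and 1.43 CPM in the light (2.92 ± 0.42, adjusted p = 0.0199), and its highest value was ZT18 replicate 2. The gene rgr had 34.5, 68.2 and 102 CPM in the dark and 12.7, 23.5 and 32.3 CPM in the light (1.53 ± 0.14, adjusted p = 0.00187). Myo28B1, rgr, Exn, CG31871 and CG1632 were also called in the phase comparison of 5 against 5 libraries, with adjusted p of 0.0284, 0.0412, 0.0419, 0.0284 and 0.0353. The other 5 genes called there but not with 6 against 6 libraries were CG7627 and CG4168, higher in the dark by 0.63 and 0.70 on the log2 scale, and CG42368, CG42568 and CG15211, with differences of -0.60, -1.55 and -0.49.

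Genes that fell in the dark in this model included a group with low levels and wide differences. Cdc6, a factor of DNA replication licensing, had 0.837, 1.11 and 1.48 CPM in the dark and 1.70, 9.56 and 15.8 CPM in the light (-2.46 ± 0.21, adjusted p = 0.00176), and Cks30A, a cyclin-dependent kinase subunit, had 0.512, 1.87 and 3.36 CPM in the dark and 1.67, 8.71 and 19.1 CPM in the light (-2.26 ± 0.29, adjusted p = 0.0104). The 4 Cdc6 libraries of ZT2 and ZT6 held 8.62 to 15.8 CPM, and those of ZT10, at 1.70 and 2.19 CPM, were near the dark level. The cuticle protein gene Cpr66D averaged 50.8 CPM at ZT2 and stood at 5.44 to 13.0 CPM at all other times (-1.19 ± 0.17, adjusted p = 0.0199), so its call rests on the first time of the light phase. CG17005 had the widest fall, 0.742, 1.93 and 11.9 CPM in the dark and 3.71, 33.2 and 83.3 CPM in the light (-3.40 ± 0.40, adjusted p = 0.00708).

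Some calls of this model reflect a single time. CG17327 was at 0 in both ZT10 libraries and between 33.0 and 124 CPM in the other 10, and CG33502 was at 0.350 and 0.185 CPM at ZT6 and at least at 15.4 CPM in the other 10. Their phase comparison in edgeR gave adjusted p of 0.978 and 0.879. Both overlap other genes on the same strand, and a split of reads with those genes in the counting was not tested. The antimicrobial peptide gene Attacin-C (AttC) held 79.3 and 153 CPM at ZT18 and 1.04 to 5.74 CPM elsewhere. Its fitted difference of 1.76 ± 0.26 (adjusted p = 0.0218) rests on ZT18, and in the phase comparison it was 4.09 ± 1.26 and not called (adjusted p = 0.429).

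**Figure D4:**
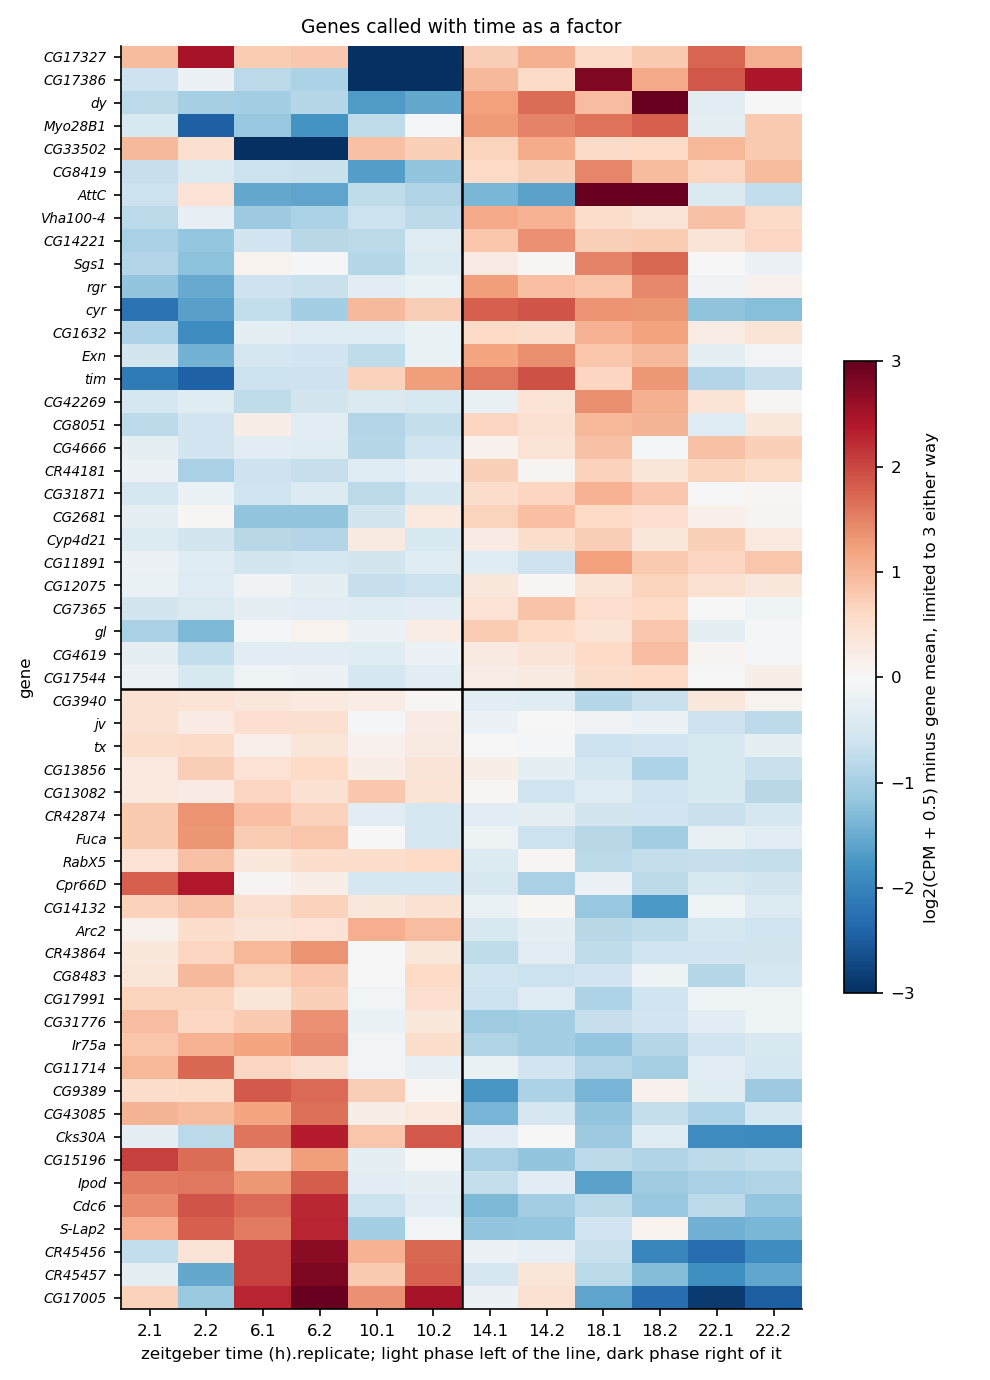
Log2 CPM minus the mean of the gene (colour, limited to 3 either way) for the 55 genes called with time as a factor, rows, in the 12 wild-type libraries, columns, labelled by zeitgeber time and replicate. The 28 genes above the horizontal line are on the whole redder in the 6 dark libraries, right of the vertical line, and the 27 below it in the 6 light libraries; the dark blue cells of CG17327 at ZT10 and CG33502 at ZT6 show calls that rest on 1 time.

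A count that needs no model is that of genes whose 6 dark libraries all lay on one side of their 6 light libraries: 57 of 10298 genes (0.554%) lay above and 45 (0.437%) below. With 5 against 5 libraries these were 151 (1.47%) and 162 (1.57%). Smaller groups separate fully more often even without a difference, so these counts cannot be set against those of 6 against 6. The 102 genes without overlap at 6 against 6 include the 11 called ones, and the others named were chosen after their values were seen. The bZIP gene Xrp1, a stress-response factor, had 285, 395 and 506 CPM in the dark and 549, 700 and 890 CPM in the light (log2 difference -0.84 ± 0.17, adjusted p = 0.0957). The Bcl-2 family gene Buffy had 13.7, 22.9 and 32.7 CPM in the dark and 36.3, 44.5 and 107 CPM in the light (-1.22 ± 0.30, adjusted p = 0.210). Synd, for a membrane-curving protein of the synapse, had 297, 327 and 351 CPM in the dark and 116, 214 and 257 CPM in the light (0.64 ± 0.17, adjusted p = 0.268). Prominin (prom), which keeps photoreceptor membranes apart, had 188, 227 and 336 CPM in the dark and 119, 144 and 176 CPM in the light (0.70 ± 0.16, adjusted p = 0.173). In these genes the phases did not overlap, yet none of the differences passed the test over all genes.

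Across 31 lists of genes, whose further members were named after their values were seen, a single member of a single list was called between the phases, Arc2 in the activity-regulated list, against 0.107% of all genes. In bulk heads, fewer cells of a type and less RNA per cell cannot be told apart. The 15 activity-regulated genes tested, whose transcripts rise after neurons fire, had a median log2 difference of -0.21, beside -0.01 over all genes. Of the 15, 3 were positive, beside 4990 of 10298 genes. Medians of the heat shock, cuticle and odorant binding lists were as low, at -0.23, -0.22 and -0.21. By library, the activity-regulated median deviation from each gene's mean was -0.27 and -0.32 at ZT22. It was -0.16 to 0.20 in the other dark libraries and -0.12 to 0.28 in the light ones. Besides Arc2 the list held the nuclear receptor gene Hr38, with 5.33, 11.8 and 16.2 CPM in the dark and 16.7, 20.3 and 25.8 CPM in the light. Hr38 differed by -0.83 ± 0.24 (adjusted p = 0.386), and by -0.60 with 5 against 5 libraries (adjusted p = 0.223), so its phases did not overlap but it was not called.

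The photoreceptor list (36 tested) had a median of -0.11 and no called member, and an unadjusted p under 0.05 was reached by 2 members higher and 2 lower in the dark. The lowest p was that of prom, given above, which was higher in the dark, as was ninaG (0.30, adjusted p = 0.715). The light-activated channel gene trpl had 1553, 2610 and 3100 CPM in the dark and 2722, 3484 and 4594 CPM in the light (-0.59 ± 0.23, adjusted p = 0.662). In the head-output list (20 tested, median 0.20) 4 members had an unadjusted p under 0.05 and a positive difference and 1, trpl, which is in both lists, a negative one, against 3.12% and 3.58% of all genes. Among the 4 was Slob, a regulator of potassium channels, with 407, 745 and 1048 CPM in the dark and 357, 398 and 629 CPM in the light (0.70 ± 0.24, adjusted p = 0.548). The monoamine list (11 tested, median 0.07) held Hdc, the enzyme that makes the photoreceptor transmitter histamine, with 63.8, 87.8 and 112 CPM in the dark and 35.4, 51.7 and 83.2 CPM in the light (0.71 ± 0.22, adjusted p = 0.411).

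Other lists moved with single libraries or with a single time. The 82 ribosomal protein genes tested had a median of -0.36, with 3 positive, and no called member; their median deviation from the mean of each gene was 0.66 in ZT22 replicate 1 and -0.37 to -0.20 in the other dark libraries, against 1.39 in ZT2 replicate 2 and -0.43 to 0.22 in the other light libraries. These are the libraries with low coverage of long genes, and without them the median was -0.13. The 4 Turandot stress genes had a median of 1.14 with 6 against 6 and 0.06 with 5 against 5 libraries, with ZT22 replicate 1 at 2.79 above the mean. The 19 antimicrobial genes had a median of 0.26, or 0.53 with 5 against 5 libraries; ZT18 replicates 2 and 1 stood 1.47 and 0.54 above the mean of each gene, and ZT2 replicate 2 stood 0.96 above it. The antimicrobial peptide gene Diptericin (Dpt) held 23.7 and 96.1 CPM at ZT18 and 0.124 to 3.23 CPM in all other libraries. The fat body list (11 tested, median 0.50) held the storage protein gene Lsp2, with 0.901, 3.72 and 327 CPM in the dark and 0.837, 1.62 and 14.7 CPM in the light (3.81 ± 1.49, adjusted p = 0.662). The summed fat body markers, which also include Lsp2, stood at 3063 to 13880 CPM in the dark and 3051 to 8099 CPM in the light, and their part in these values was not tested. The heat shock list (23 tested) had a median of -0.23 and the 70 cytochrome P450 genes 0.04. Apart from a digestive peptidase list with 1 gene tested, the other lists had medians from -0.22 to 0.18.

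**Figure D5:**
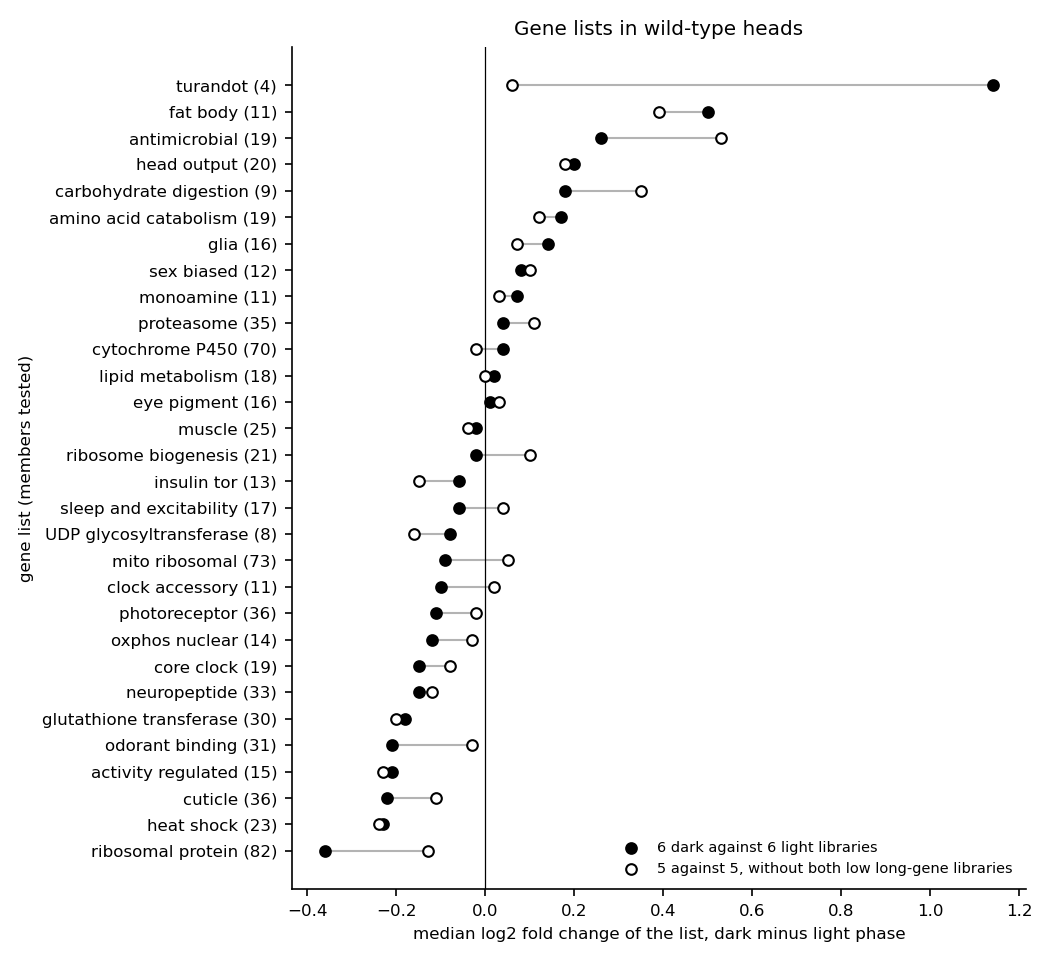
Median log2 difference, dark minus light phase (horizontal axis), of each gene list with at least 4 members tested (rows, members in brackets), for 6 against 6 libraries (filled) and for 5 against 5 without both low long-gene libraries (open). The ribosomal protein list lies at -0.36 and -0.13 and the Turandot list at 1.14 and 0.06; most lists lie near 0 in both.

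At the level of annotated transcripts, none of 15969 tested (0%) was called by limma on log2(FPKM + 1), with 746 at an unadjusted p under 0.05 and 1 called with 5 against 5 libraries. Leaving out single libraries gave 6 calls without ZT10 replicate 1 and 1 without ZT6 replicate 2 or ZT10 replicate 2, and 0 otherwise. The lowest adjusted p were those of CG8419 (0.0741) and Vha100-4 (0.0797), whose single transcripts differed by 1.68 ± 0.21 and 1.09 ± 0.15 on this scale, which understates changes of low transcripts. Of 68 transcripts of core clock genes 34 had a positive difference. In limma 3 of the 68 had an unadjusted p under 0.05, 2 of tim and 1 of nmo. This is a share similar to the 746 of all 15969 transcripts tested. The nmo transcript, of 6235 nt, had 12.1, 15.1 and 27.5 FPKM as lowest, median and highest value in the dark and 20.4, 23.7 and 30.0 FPKM in the light (-0.51 ± 0.19, adjusted p = 0.867). A tim transcript of 5073 nt and 16 exons had 2.46, 25.9 and 200 FPKM as lowest, median and highest value in the dark and 0, 0 and 19.9 FPKM in the light (3.82 ± 1.02, adjusted p = 0.779). A shorter tim transcript of 3525 nt had 0.208, 7.73 and 32.2 FPKM in the dark and 0, 0.348 and 1.89 FPKM in the light (2.12 ± 0.76, adjusted p = 0.867). The other 3 tim transcripts differed by 0.14 to 0.70. The tim transcripts share most of their exons, so values of single ones depend on how the submitters' software divided reads.

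The gene per has a pair of tested transcripts, 1 of 9 exons (4441 nt) and 1 of 8 exons (4527 nt), which is 86 nt longer. The 9-exon form took 47.5 ± 10.3% of the per FPKM in the dark and 35.4 ± 5.98% in the light (SD, n = 6 each; exact two-sided permutation test, p = 0.0368, chosen after the data were seen). By time its mean share was 36.2, 32.9, 37.2, 46.4, 57.2 and 38.9% at ZT2, ZT6, ZT10, ZT14, ZT18 and ZT22, and the lowest dark share, 29.5%, came from ZT22 replicate 1. With 5 against 5 libraries the shares were 51.1 ± 5.94% in the dark and 36.6 ± 5.91% in the light. These no longer overlapped (exact permutation p = 0.00794, the smallest this test can give with 5 against 5). The test permutes single libraries although replicates share a time, so it does not account for differences among times within a phase. Shares of the per transcripts also depend on how the submitters' software divided reads. The result rests on few libraries, since leaving out single ones gave exact permutation p of 0.00433 to 0.0736, above 0.05 without ZT14 replicate 1, ZT18 replicate 1, ZT22 replicate 2 or ZT2 replicate 2 (0.0693 each), ZT18 replicate 2 (0.0736), or ZT6 replicate 1, ZT6 replicate 2 or ZT10 replicate 2 (0.0606 each).

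The dark-light difference of wild type was set against the same difference in cwo5073 heads in a joint fit. CPM given with this fit are scaled over its 24 libraries, so wild-type values differ slightly from those above. The labels do not say which part of cwo is altered. RNA of cwo itself was lower in wild type, at 50.7, 98.1 and 173 CPM as lowest, median and highest value in the dark and 56.0, 75.0 and 124 CPM in the light, against 392, 759 and 909 CPM in the dark and 242, 277 and 603 CPM in the light in the mutant, so this level separates the genotypes but does not check the mutation. The eye colour gene white (w) also separated them, with 5.64 to 10.6 CPM in the dark and 7.79 to 22.0 CPM in the light in wild type, against 174 to 521 CPM and 140 to 262 CPM in the mutant. The dark-light difference differed between genotypes in none of 10645 genes (0%) in edgeR's quasi-likelihood test, with 432 at an unadjusted p under 0.05. Such a difference between genotypes was called in 0 genes with scaling by relative log expression and in 1 with no filter on low counts. In this fit of 24 libraries 93 genes (0.874%) were called between dark and light in wild type and 30 (0.282%) in the mutant. The 11 wild-type genes all had the same sign in the mutant, and 6 of them were called there. They were chosen by their wild-type difference, so a smaller difference in the mutant is no sign that the genotypes differ. Among the 11 genes the genotype difference had a standard error of 0.24 to 0.80 on the log2 scale. CG8419 differed by 1.79 ± 0.19 in wild type and 1.37 ± 0.18 in the mutant, CG14221 by 1.64 ± 0.17 in wild type and 1.27 ± 0.17 in the mutant, and Ir75a by -1.74 ± 0.21 in wild type and -1.45 ± 0.21 in the mutant.

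Arc2 was among the 5 genes with the lowest p for the genotype difference. In wild type it had 6.02, 7.35 and 8.90 CPM as lowest, median and highest value in the dark and 12.0, 15.5 and 24.4 CPM in the light, and in the mutant 5.30, 6.23 and 7.67 CPM in the dark and 5.97, 7.37 and 13.1 CPM in the light. The dark-light difference was -1.24 ± 0.18 in wild type and -0.31 ± 0.18 in the mutant, and the genotype difference of -0.94 ± 0.26 did not pass edgeR's test (adjusted p = 0.878). The other 4 were CG31268 (adjusted p = 0.0757), CR42860, Rala and w (adjusted p = 0.878 each). CG31268 was at 0 in all 6 dark libraries of the mutant and at 0.185 to 0.577 CPM in its light libraries. In wild type its median was 0.589 CPM in the dark and 0.893 CPM in the light, and no library of either phase was at 0. The light receptor gene cry differed between phases by -0.49 ± 0.19 in wild type (adjusted p = 0.253) and by -0.97 ± 0.19 in the mutant (adjusted p = 0.0215), and the difference between them was not called (0.48 ± 0.27, adjusted p = 0.878).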

How the data were processed

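Poly(A) RNA of fly heads was sequenced from 24 libraries, of which 12 are wild type. Tools listed in the submitters' processing notes, with no role given, are DESeq2, StringTie and STAR 2.6.1d, and the build is dm6. The count table was deposited by the authors as whole-number expected counts per gene. In all 16722 genes used these counts equal the sum over transcripts of the deposited coverage signal times transcript length over a read length of 75, each transcript rounded up to a whole number, so they are estimates from coverage. The authors also deposited FPKM values per gene and transcript, which carry no depth of their own. The total count per library, whose range the report gives, sets the precision of low counts, and no interval from counting is given. The files' 5 gene names that had turned into dates were left out, and 0 columns of per-sample values could not be mapped. Gene symbols and biotypes came from RefSeq, matched by transcript accession for 16456 genes, and coordinates from the deposited transcript tables.

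Counts were scaled by TMM, filtered with edgeR's filterByExpr and tested with edgeR's quasi-likelihood test (edgeR 4.0.16, R 4.3.3) with Benjamini-Hochberg adjustment over all genes tested, in a model with phase as the only term. A value is called at an adjusted p under 0.05. For genes tested with edgeR, the SE given is the absolute log2 difference divided by the square root of the test's F statistic. limma 3.58.1 was run on log2(FPKM + 1) of transcripts that reached 1 FPKM in 6 or more libraries. The genotype comparison used all 24 libraries, with TMM scaling over these. The marker sums used CPM scaled by the library total alone, without TMM. Alternatives were DESeq2 1.42.0, limma-voom, other scalings and filters, a term for each time, a term for the replicate number, the long-gene score as a covariate, gene FPKM, and leaving out libraries. The tests of any difference among times, of the per transcript share and of single libraries in the model of 6 times were chosen after the data were seen. Scripts were tested on simulated data before use. Genes to be named were, among calls with mean log2 CPM of 3 or more, the 12 highest and 12 lowest fold changes, every measured core clock gene, the 2 called members of lowest p in each direction of each other list, and the 5 lowest p of the genotype difference. Among transcripts they were those of core clock genes. The text says where others were chosen by their values. Members and lists were chosen with earlier results of these data known.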

Additional observations from a re-analysis of the deposited data

Results flagged for a closer look

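Of 68 groups of 6 libraries examined, 12 held a library whose gap to its nearest neighbour was wide for the range of its group, where chance gives about 1 in 20. Groups of the same phase share the same 6 libraries, so they are not independent and their number cannot be set against that rate. Each phase spans 3 times, so a gap can also be a difference between times. In the light phase ZT2 replicate 2, a library with low coverage of long genes, stood apart in 8 of the 12. Its median Spearman correlation with the other wild-type libraries was 0.8889 (nearest 0.975) and its TMM factor 0.7171 (nearest 0.986). It was the lowest light library for cyc, at 22.8 CPM against 35.2 CPM, and for cry, at 111 CPM against 206 CPM. It was the highest for the casein kinase gene dco, at 291 CPM against 177 CPM, for CkIIbeta, at 260 CPM against 156 CPM, and for the phosphatase genes mts, at 711 CPM against 423 CPM, and wdb, at 681 CPM against 417 CPM. For CkIIalpha the highest light library was ZT10 replicate 1, at 207 CPM against 144 CPM. In the dark phase ZT14 replicate 2 was highest for nmo, at 193 CPM against 138 CPM, and for RabX5, at 7.88 CPM against 5.54 CPM, and ZT18 replicate 1 was highest for CG8419, at 73.8 CPM against 51.9 CPM.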

How the results depend on the processing

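The count of genes called between phases was 11 with phase as the only term and moved with the model. It was 101 with DESeq2, 17 with 5 against 5 libraries, 55 with time as a factor, 93 in the fit of 24 libraries, 49 with the long-gene score as a covariate, 31 without ZT2 and ZT14, 3 on gene FPKM with a pseudocount of 1 and 3 with 0.1, and 3 to 18 when 1 library was left out. With time as a factor it was 19 to 2181 when 1 library was left out and 113 without both low long-gene libraries. The genotype difference called 1 gene with no filter and 0 to 1 when 1 library was left out, and transcripts 1 with 5 against 5 libraries and 0 to 6 when 1 library was left out. In these the cause was not tested. The median log2 difference over all genes tested was 0.11 on gene FPKM with a pseudocount of 0.1 and 0.10 with 1, against -0.01 on counts, in a table of 8489 genes. CG8419, Vha100-4 and CG14221 were called in all 26 alternatives. Signs turned for clock genes that were not called: without ZT2 and ZT14 in tim (-0.04), Clk (0.43), cwo (-0.28), vri (-1.17), CG31324 (-0.28) and slmb (-0.13); with the long-gene covariate in vri (-0.15); on gene FPKM in jet (0.06 and 0.07 with pseudocounts of 1 and 0.1) and CkIIalpha (0.01 with each); with time as a factor and without both low long-gene libraries in Pdp1 (0.07). Leaving out 1 library gave -0.08 to 0.16 in CG31324 and -0.04 to 0.07 in slmb. Replicate numbers did not pair the samples: deviations from the time means correlated at -0.36 to 0.21 over 15 pairs of times, 4 of them over 0.1. A term for the replicate number, the replicate block, gave 11 calls, 10 of them shared, 44 with time as a factor, 31 for any difference among times, and 0 for the genotype difference and for transcripts. Low counts limit CG8483, CG15196 and CG43085, whose dark levels lie near or under 1 CPM.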
